A study of Mus musculus with 12 samples.

Results

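The postsynaptic side of a synapse is held together by scaffold proteins, by the calcium/calmodulin-dependent kinase CaMKII and by adhesion proteins that reach across the synaptic cleft. The 42 genes described here encode such proteins. Their rows were found by symbol from a list that was chosen with earlier results of these data known. They are 14 scaffold genes (the Dlg, Shank, Homer and Dlgap families), 4 CaMKII genes, the neurogranin gene Nrgn, 2 exchange factor genes of dendritic spines and 21 adhesion genes. All 42 were among the 33024 gene symbols of the count table, and all 42 were among the 16059 genes with enough counts to be tested. The tissue was brain cortex of wildtype C57BL/6 mice, used whole and without sorting of cells, from 7 mice labelled Vehicle (Control) and 5 labelled EtOH. EtOH mice chose, from 30 days of age, between a bottle of water and a bottle of 20% (v/v) ethanol during 12 h of each of 35 nights, and then went without ethanol for 14 days. Tests of behaviour (water maze, Y-maze, forced swim and rotarod) followed in both groups before the tissue was taken, so harvest came later than the end of those 14 days. Control mice had water in both bottles, and both groups were of the same strain with no transgene described. The ethanol intake and the sex of each sequenced mouse, and the part of the cortex taken, are not given in the sources used here.

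At an excitatory synapse, the Dlg proteins, which belong to the membrane-associated guanylate kinases (MAGUKs), bind the tails of glutamate receptors. Dlgap proteins link them to Shank proteins, and Homer proteins link Shank to metabotropic glutamate receptors. Neuroligins, some Lrrtm proteins and secreted cerebellins bind presynaptic neurexins, whereas Slitrk and some Lrfn proteins bind presynaptic receptor phosphatases. Cortical neurons use most of these families side by side, but single members differ between brain regions and neuron types.

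Total counts ranged from 31768076 to 40690223 in Control and from 32048723 to 42183029 in EtOH mice. Values are CPM, a gene's counts relative to the library size as scaled by the TMM method, and differences are log2 fold changes of EtOH against Control. To be called higher or lower, a gene needed both an adjusted p below 0.05 and a change of more than 0.5 on the log2 scale (edgeR's quasi-likelihood test over all genes, Benjamini-Hochberg adjustment). Markers of the striatum and the hippocampus differed between the groups. All 15 genes of a striatal list were called lower, and their summed level was 1550 to 3170 CPM in Control and 473 to 517 CPM in EtOH mice. Of 14 hippocampal genes, 7 were called higher and 1 lower, with sums of 442 to 635 CPM in Control and 662 to 858 CPM in EtOH mice. The sums of 10 genes shared by most neurons, of which 0 were called by edgeR (1 higher and 5 lower by the adjusted p alone), were 7867 to 8861 and 7488 to 7915 CPM. Genes of the upper cortical layers were present in both groups, with sums of 805 to 903 CPM in Control and 776 to 955 CPM in EtOH mice. None of the 42 genes is on these lists, and the part of the tissue differences in the results below was not tested.

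Of the 42 genes, 6 were called higher in EtOH mice (Homer2, Homer3, Camk2d, Lrrtm1, Cbln1 and Cbln4) and 1, Cbln2, was called lower. This is 14.3% higher, 2.38% lower and 16.7% in either direction, where 4.2%, 4.09% and 8.29% of all 16059 tested genes were. With the adjusted p alone, 12 of the 42 (28.6%) were higher and 6 (14.3%) lower, beside 12.1% and 11.6% of all tested genes (23.7% in either direction), and 24 did not pass. Genes of at least 10 CPM on average are a closer background in level, and of these 10051 genes 2.54% were called higher, 2.37% lower and 4.9% either way, or 13.8%, 13.4% and 27.2% by the adjusted p alone. The share called lower was thus near the background. The median log2 fold change was 0.059 over the 42 genes and 7.21e-05 over all genes tested. In 7 genes every EtOH mouse lay above every Control mouse and in 2 genes every one lay below, beside 4.84% and 4.96% of all tested genes (9.81% in either direction). In whole tissue, a lower level of a transcript per cell and fewer cells that carry it cannot be told apart.

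**Figure D1:**
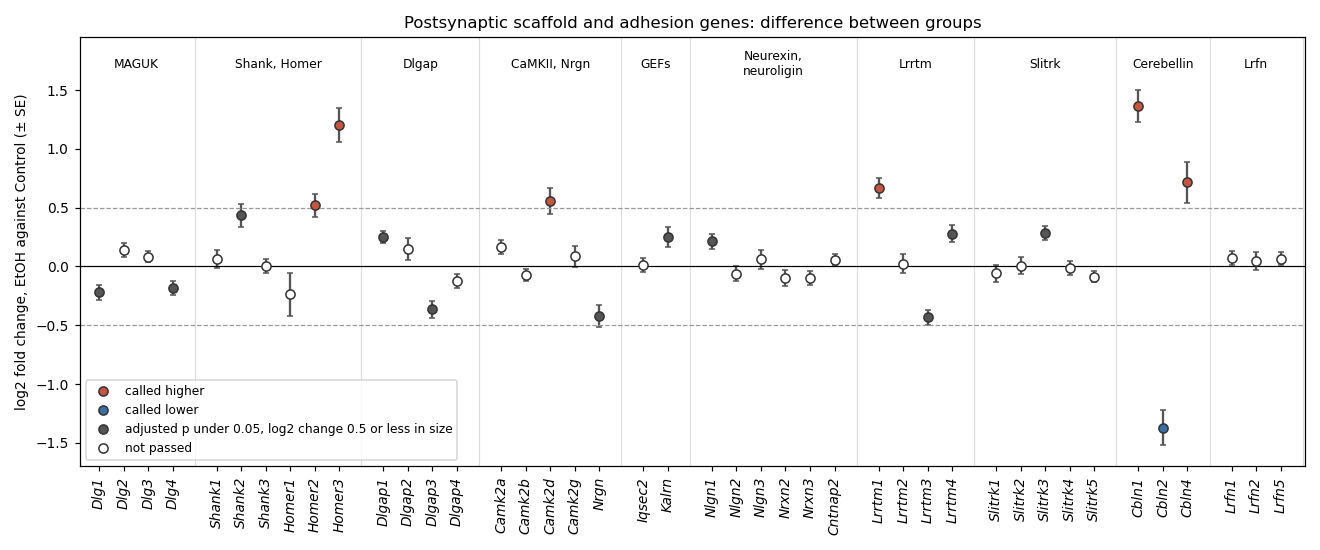
Log2 fold change of EtOH against Control for each of the 42 genes, grouped by family, with its standard error (bars) from edgeR's quasi-likelihood test on 7 Control and 5 EtOH mice. Dashed lines mark the minimum of 0.5. Cbln1 and Homer3 lie highest and Cbln2 lowest, whereas the 24 genes that did not pass lie between -0.24 and 0.16.

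None of the 4 MAGUK genes was called, but Dlg1 and Dlg4 were lower by the adjusted p alone. Dlg4 (chromosome 11 from 69907768 to 69938348, build GRCm39), whose product is the best known MAGUK of excitatory synapses, had the highest per-length level of the 4 in Control mice, 62.5 ± 3.64 CPM per kb of exon (SD, n = 7). It had 828.7 ± 48.2 CPM (SD, n = 7) in Control and 730.2 ± 58.8 CPM (SD, n = 5) in EtOH mice, a log2 fold change of -0.18 (SE 0.06, adjusted p = 0.0326). Dlg1 had 184 ± 11.7 CPM (SD, n = 7) in Control and 158 ± 15.3 CPM (SD, n = 5) in EtOH mice, a log2 fold change of -0.22 (SE 0.06, adjusted p = 0.0197). Both depended on single mice. The adjusted p of Dlg4 came to between 0.0530 and 0.102 without Control mouse 1, 3, 4 or 7 or EtOH mouse 1 or 2, and that of Dlg1 to 0.0540 and 0.0588 without EtOH mouse 3 or 4. For Dlg2, the ranges of 349.9 to 434 CPM in Control and 437 to 458 CPM in EtOH mice did not overlap, but the log2 fold change of 0.14 (SE 0.06, adjusted p = 0.0838) did not pass. Dlg3 did not pass either (0.08, SE 0.05, adjusted p = 0.232).

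Shank proteins form the deeper layer of the postsynaptic density. Shank2 (chromosome 7 from 143532669 to 143979779) had 216, 157, 181, 202, 223, 215 and 245 CPM in Control mice 1 to 7 and 269, 237, 271, 325 and 287 CPM in EtOH mice 1 to 5. Of the EtOH mice, 4 of 5 lay above every Control mouse. Its log2 fold change of 0.43 (SE 0.09, adjusted p = 0.00306) stayed below the minimum of 0.5. The other two genes had small differences that did not pass, Shank1 with 0.06 (SE 0.07, adjusted p = 0.576) and Shank3 with 0.01 (SE 0.06, adjusted p = 0.956). Shank2 made up 11.97% ± 1.01 (SD, n = 7) of the summed per-length level of the 3 genes in Control mice and 15.2% ± 0.771 (SD, n = 5) in EtOH mice.

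Homer proteins bridge Shank and the metabotropic glutamate receptors, and both minor members of the family were called higher. Homer3 (chromosome 8 from 70735477 to 70747025) had the lowest level of the 42 genes per length in Control mice, 0.817 ± 0.105 CPM per kb (SD, n = 7). It had 4.38, 4.47, 3.69, 4.50, 4.54, 4.02 and 3.14 CPM in Control mice 1 to 7 and 10.1, 10.2, 11.7, 9.38 and 5.84 CPM in EtOH mice 1 to 5. Every EtOH mouse lay above every Control mouse, with EtOH mouse 5 nearest to them. The log2 fold change of Homer3 was 1.20 (SE 0.14, adjusted p = 1.19e-05). Exons of Ddx49, an RNA helicase gene on the opposite strand, overlap 22.9% of the exon bases of Homer3, and whether the counting used strand is not given. Ddx49 itself had 19.7 ± 1.05 CPM (SD, n = 7) in Control and 19.0 ± 1.05 CPM (SD, n = 5) in EtOH mice (log2 fold change -0.06, adjusted p = 0.551).

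Homer2 (chromosome 7 from 81250229 to 81357275) had 57.3, 49.4, 51.7, 63.0, 73.3, 73.0 and 70.9 CPM in Control mice 1 to 7 and 93.5, 75.8, 99.6, 90.7 and 89.4 CPM in EtOH mice 1 to 5. The groups did not overlap, although EtOH mouse 2 lay just above the highest Control mouse. The log2 fold change of 0.52 (SE 0.10, adjusted p = 0.00109) was close to the minimum. Without Control mouse 1, 2 or 3 or EtOH mouse 3 it came to 0.498, 0.469, 0.477 and 0.479, under the minimum, with adjusted p at 0.00419 or less. Homer1, the main member in level, has a short form induced by neuronal activity, which counts per gene symbol do not separate. Its levels of 147 to 256 CPM in Control and 102 to 241 CPM in EtOH mice overlapped broadly, and its log2 fold change of -0.24 (SE 0.18, adjusted p = 0.362) had the largest standard error of the 42. Homer1 held 75.0% ± 4.77 (SD, n = 7) of the per-length level of the family in Control and 61.1% ± 8.65 (SD, n = 5) in EtOH mice.

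Dlgap proteins are the adaptor between MAGUKs and Shank. Dlgap1 and Dlgap3 passed by the adjusted p alone, in opposite directions. Dlgap1 (chromosome 17 from 70275873 to 71128409) had 541, 506, 543, 546, 595, 555 and 604 CPM in Control mice 1 to 7 and 659.9, 694, 654, 646 and 652 CPM in EtOH mice 1 to 5. The groups did not overlap, with a log2 fold change of 0.25 (SE 0.05, adjusted p = 0.00155). Dlgap3 (chromosome 4 from 127062750 to 127130847) had 593, 626, 638, 639.7, 500.2, 556 and 563 CPM in Control mice 1 to 7 and 428, 419, 438, 522 and 476 CPM in EtOH mice 1 to 5. Here only EtOH mouse 4 reached into the Control range, and the log2 fold change was -0.36 (SE 0.07, adjusted p = 0.00117). Dlgap3 is known for its strong expression in the striatum, whose markers summed to 1550 CPM or more in every Control mouse and 517 CPM or less in every EtOH mouse. Whether the striatal difference has a part in the level of Dlgap3 was not tested. Dlgap2 (0.15, SE 0.10, adjusted p = 0.286) and Dlgap4 (-0.13, SE 0.06, adjusted p = 0.127) did not pass with all mice, but without Control mouse 5 their adjusted p was 0.0245 and 0.0263.

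CaMKII is the most abundant kinase of the postsynaptic density, built in neurons mainly of its alpha and beta subunits, whereas the gamma and delta subunits are found in many tissues. Of the 4 genes, only the delta subunit gene Camk2d was called. Camk2d (chromosome 3 from 126389945 to 126639982) had 86.0, 97.9, 81.6, 97.4, 88.8, 97.9 and 76.6 CPM in Control mice 1 to 7 and 145, 88.9, 156, 147 and 119.6 CPM in EtOH mice 1 to 5. In 4 of 5 EtOH mice the level was above every Control mouse, and EtOH mouse 2 lay inside the Control range. The log2 fold change was 0.56 (SE 0.11, adjusted p = 0.00144), and it came to 0.485 without EtOH mouse 3, just under the minimum, with adjusted p = 0.00603. Camk2d supplied 0.700% ± 0.108 (SD, n = 7) of the per-length level of the 4 genes in Control and 0.933% ± 0.201 (SD, n = 5) in EtOH mice, and Camk2a supplied 78.8% ± 1.36 and 80.7% ± 1.49.

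Camk2a, the alpha subunit gene (chromosome 18 from 61058473 to 61121224), had the highest per-length level of the 42 genes in Control mice, 381 ± 33.4 CPM per kb (SD, n = 7). It had 3670 ± 321 CPM (SD, n = 7) in Control and 4111 ± 215 CPM (SD, n = 5) in EtOH mice, and its log2 fold change of 0.16 (SE 0.06, adjusted p = 0.0617) did not pass. Its adjusted p was 0.0441 with DESeq2, 0.0350 with the replicate number as a block, 0.0366 without the deepest library of each group, 0.0245 without Control mouse 7 and 0.0448 without EtOH mouse 1. In its other 15 alternative fits it lay between 0.0554 and 0.153. Camk2b (-0.08, SE 0.05, adjusted p = 0.296) and Camk2g (0.09, SE 0.09, adjusted p = 0.526) did not pass. Neurogranin, which binds calmodulin and so sets how much of it is free for CaMKII, is encoded by Nrgn (chromosome 9 from 37452275 to 37464689), the second highest per length with 321 ± 48.2 CPM per kb (SD, n = 7) in Control mice. Nrgn had 1795, 1791, 2180, 1800, 1442, 1527 and 2108 CPM in Control mice 1 to 7 and 1277, 1479, 1203, 1307 and 1481 CPM in EtOH mice 1 to 5. The log2 fold change was -0.42 (SE 0.09, adjusted p = 0.00351), under the minimum in size, and 3 of 5 lay below every Control mouse. Exons of Vsig2 and of a predicted gene on the opposite strand overlap 24.9% of its exon bases, and Vsig2 had a log2 fold change of -0.17 (adjusted p = 0.345).

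The 2 exchange factor genes act on small GTPases of the spine. Kalrn, whose product activates Rac in spines (chromosome 16 from 33789443 to 34393902), had 628 ± 74.7 CPM (SD, n = 7) in Control and 747 ± 82.9 CPM (SD, n = 5) in EtOH mice, a log2 fold change of 0.25 (SE 0.08, adjusted p = 0.0384). With each mouse left out in turn, the adjusted p alone passed in 4 of 12 fits. The adjusted p lay between 0.0525 and 0.108 without Control mouse 1, 2, 3, 4 or 6 or EtOH mouse 1, 2 or 5. Iqsec2, an exchange factor for Arf GTPases, had 317 ± 26.8 CPM (SD, n = 7) in Control and 319.6 ± 13.9 CPM (SD, n = 5) in EtOH mice (0.01, SE 0.06, adjusted p = 0.906).

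**Figure D2:**
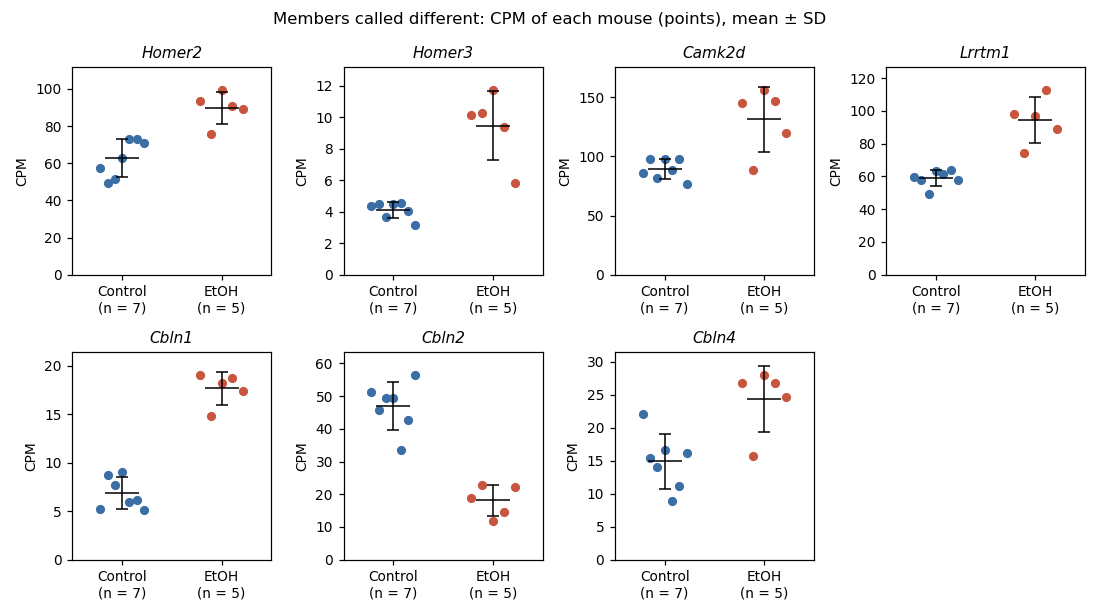
CPM of each mouse (points) for the 7 genes called different, on linear axes from 0, with the mean and SD of 7 Control and 5 EtOH mice. Groups do not overlap for Homer2, Homer3, Lrrtm1, Cbln1 and Cbln2, whereas EtOH mouse 2 lies inside the Control range for Camk2d and Cbln4.

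The cerebellins are small secreted proteins that bridge presynaptic neurexins to postsynaptic receptors, for Cbln1 and Cbln2 the delta glutamate receptors. All 3 cerebellin genes among the 42 were called, 2 higher and 1 lower, and Cbln3, counted among the other adhesion genes described last, had a mean of 0.521 CPM. Cbln1 (chromosome 8 from 88195033 to 88199261), best known from the parallel fibre synapse of the cerebellum, had 5.20, 8.76, 7.70, 9.06, 5.96, 6.19 and 5.13 CPM in Control mice 1 to 7 and 19.1, 14.8, 18.2, 18.8 and 17.4 CPM in EtOH mice 1 to 5. Every EtOH mouse lay above every Control mouse, and the log2 fold change was 1.37 (SE 0.13, adjusted p = 1.29e-06), the largest rise of the 42. Exons of the predicted gene Gm19872 on the opposite strand overlap 19.3% of its exon bases, and Gm19872 had no counts in any mouse.

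Cbln2 (chromosome 18 from 86729008 to 86738347) moved the other way, with 51.3, 45.9, 49.4, 49.4, 33.4, 42.6 and 56.6 CPM in Control mice 1 to 7 and 18.8, 23.0, 11.96, 14.6 and 22.3 CPM in EtOH mice 1 to 5. Every EtOH mouse lay below every Control mouse, and the log2 fold change was -1.37 (SE 0.15, adjusted p = 4.55e-06), the largest fall of the 42. Cbln4 (chromosome 2 from 171878142 to 171885460) had 22.04, 15.4, 14.1, 16.6, 8.87, 11.2 and 16.1 CPM in Control mice 1 to 7 and 26.8, 15.8, 28.1, 26.8 and 24.6 CPM in EtOH mice 1 to 5. Here the groups overlapped. EtOH mouse 2 lay inside the Control range and Control mouse 1 near the other EtOH mice, and the log2 fold change was 0.71 (SE 0.18, adjusted p = 0.00708). Cbln1, Cbln2 and Cbln4 each kept the call whichever of the 12 mice was left out.

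Within a mouse, the shares of Cbln1 and Cbln2 among the 3 genes did not overlap between the groups. Cbln2 held between 47.3% and 55.9% of their summed per-length level in Control mice and between 11.0% and 26.5% in EtOH mice, while Cbln1 held 9.86% to 19.1% and 32.6% to 35.2%. The shares of Cbln4 did overlap, at 29.1% to 42.9% and 38.4% to 54.5%. The sum itself overlapped, with 10.2 to 17.2 CPM per kb in Control and 13.8 to 18.2 CPM per kb in EtOH mice. The ratio of Cbln1 to Cbln2 in CPM lay between 0.0907 and 0.191 in Control and between 0.645 and 1.53 in EtOH mice. These shares restate the values of the single genes and were given no test.

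Lrrtm proteins are postsynaptic leucine-rich repeat proteins, and Lrrtm1 and Lrrtm2 bind neurexins. Lrrtm1 (chromosome 6 from 77218820 to 77235200) was called higher, with 60.0, 57.9, 49.5, 63.6, 61.5, 63.8 and 58.0 CPM in Control mice 1 to 7 and 97.9, 74.4, 96.9, 113 and 88.9 CPM in EtOH mice 1 to 5. The groups did not overlap, with EtOH mouse 2 the lowest of its group, and the log2 fold change was 0.67 (SE 0.08, adjusted p = 2.07e-05). Lrrtm3 (chromosome 10 from 63763854 to 63926056) was lower, with 64.7, 58.9, 57.7, 64.1, 53.3, 53.4 and 53.0 CPM in Control mice 1 to 7 and 43.9, 44.3, 38.6, 42.3 and 45.2 CPM in EtOH mice 1 to 5. These groups did not overlap either, and the log2 fold change of -0.43 (SE 0.07, adjusted p = 0.000134) stayed under the minimum in size. In Control mice both genes had about the same level in CPM, at a ratio of Lrrtm1 to Lrrtm3 of 0.857 to 1.20, while in EtOH mice the ratio was 1.68 to 2.67. Lrrtm4, known for its expression in the dentate gyrus, had 13.4 ± 1.21 CPM (SD, n = 7) in Control and 16.2 ± 0.884 CPM (SD, n = 5) in EtOH mice, a log2 fold change of 0.28 (SE 0.07, adjusted p = 0.0118). Exons of a predicted gene on the opposite strand overlap 25.1% of its exon bases. Lrrtm2 did not pass (0.02, SE 0.08, adjusted p = 0.849).

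**Figure D3:**
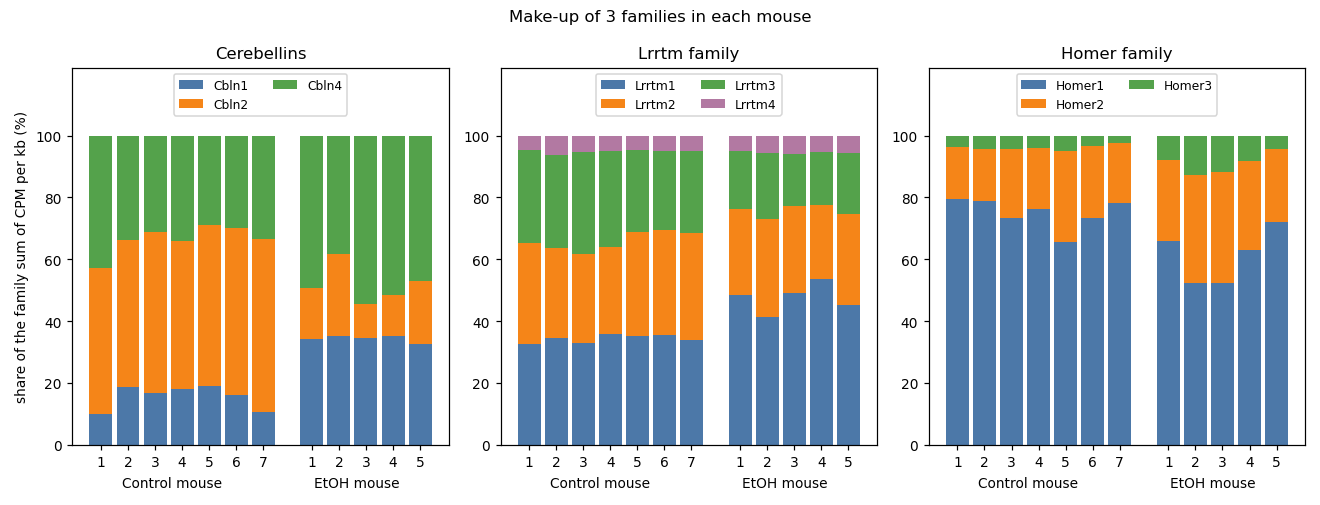
Share of each gene in the summed per-length level (CPM per kb of exon, in percent) of the cerebellins, the Lrrtm and the Homer genes, with 1 bar for each of 7 Control and 5 EtOH mice. Cbln2 takes 47.3% or more in every Control mouse and 26.5% or less in every EtOH mouse, and Lrrtm1 takes 35.8% or less and 41.3% or more.

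A stretch of upstream sequence is shown for Cbln4, called higher, and for Lrrtm3, lower in every EtOH mouse, as an example of each direction. RefSeq windows from 250 bases before a gene start (table build GRCm38.p6) matched 29 of the 42 genes, with 47 windows. Windows were looked for in Cbln4, Homer2, Homer3, Camk2d, Lrrtm1 and Lrrtm3, but not in Cbln1 and Cbln2. Among those found, only these stretches of 170 bases lay outside the annotated gene in GRCm39, where both were placed by an exact match to 1 site. They run from 250 to 81 bases before the RefSeq start, at chr2:171885467-171885636 and chr10:63926115-63926284, both on the minus strand. Capitals mark GC boxes (GGGCGG or CCGCCC) and CAAT boxes (CCAAT or ATTGG), searched on both strands along with the TATA box (TATAAA or TTTATA) and the CRE (TGACGTCA).
Cbln4: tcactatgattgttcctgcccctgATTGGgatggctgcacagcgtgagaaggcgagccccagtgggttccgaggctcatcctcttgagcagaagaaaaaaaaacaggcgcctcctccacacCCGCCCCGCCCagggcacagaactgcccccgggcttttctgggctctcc
Lrrtm3: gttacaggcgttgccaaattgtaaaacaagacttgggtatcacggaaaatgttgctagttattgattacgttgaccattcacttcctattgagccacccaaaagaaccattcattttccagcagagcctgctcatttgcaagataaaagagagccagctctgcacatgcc
The Cbln4 stretch held 2 GC boxes that overlap by 1 base and 1 CAAT box, with 60.6% G and C. The Lrrtm3 stretch held none of the 4 motifs, with 42.9% G and C, where the median of all 32851 windows was 51.2%. A GC box stood in 19.5%, a CAAT box in 23.3%, a TATA box in 8.04% and a CRE in 0.493% of all windows of this length.

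Neuroligins and neurexins are the classic pair across the cleft. None of the 3 neuroligin and 2 neurexin genes or of Cntnap2, a neurexin relative of axons, was called. Nlgn1, whose product acts at excitatory synapses, had 71.1 ± 5.01 CPM (SD, n = 7) in Control and 82.4 ± 6.77 CPM (SD, n = 5) in EtOH mice, a log2 fold change of 0.21 (SE 0.06, adjusted p = 0.0215), with 4 of 5 EtOH mice above every Control mouse. Without EtOH mouse 3 its adjusted p was 0.0699. Nlgn2, the neuroligin of inhibitory synapses, had 356 ± 20.6 CPM (SD, n = 7) in Control and 340.3 ± 34.1 CPM (SD, n = 5) in EtOH mice and did not pass (-0.06, SE 0.06, adjusted p = 0.498). The other 4 had log2 fold changes between -0.10 and 0.06 and adjusted p of 0.219 or more. For Nlgn3, 41.1% of the exon bases are shared with a predicted gene on the same strand, which makes its counts uncertain.

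Slitrk proteins are postsynaptic partners of receptor phosphatases. Of the 5 genes, Slitrk3, known from inhibitory synapses, passed by the adjusted p alone. Slitrk3 (chromosome 3 from 72953166 to 72965342) had 69.8, 64.4, 64.8, 69.4, 75.5, 71.8 and 64.0 CPM in Control mice 1 to 7 and 80.5, 88.3, 92.1, 80.1 and 77.2 CPM in EtOH mice 1 to 5. The groups did not overlap, and the log2 fold change was 0.29 (SE 0.06, adjusted p = 0.00200). Slitrk1, Slitrk2, Slitrk4 and Slitrk5 had log2 fold changes between -0.09 and 0.01 and adjusted p of 0.176 or more. The 3 Lrfn genes, whose products bind postsynaptic scaffolds or receptor phosphatases, had log2 fold changes of 0.07 for Lrfn1, 0.05 for Lrfn2 and 0.07 for Lrfn5, and none passed (adjusted p of 0.382 or more).

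**Figure D4:**
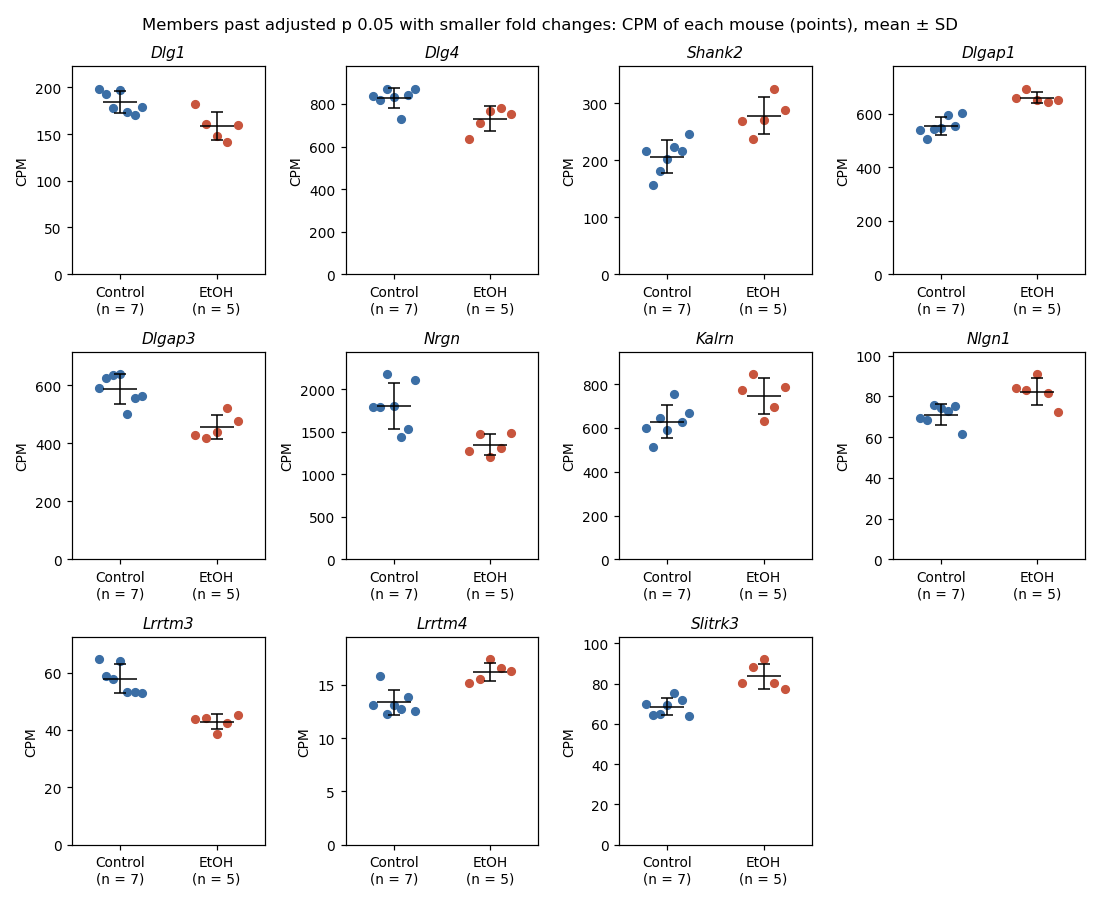
CPM of each mouse (points) for the 11 genes that passed the adjusted p alone, with a change of 0.5 or less on the log2 scale, on linear axes from 0, with the mean and SD of 7 Control and 5 EtOH mice. Groups do not overlap for Dlgap1, Lrrtm3 and Slitrk3, and they overlap for the other 8 genes.

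Every other gene of the 42 missed the adjusted p threshold. These 24 genes had log2 fold changes between -0.24 and 0.16, with standard errors under 0.1 for 23 of them. They include Dlg3, Shank1, Shank3, Camk2b, Iqsec2, Nlgn2, Nrxn2, Nrxn3, Cntnap2, 4 Slitrk and 3 Lrfn genes. A p-value that misses the threshold does not show that their levels were equal.

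EtOH mouse 2 had the lowest level among EtOH mice of Homer2, Camk2d, Lrrtm1, Cbln1 and Cbln4, and the highest of Cbln2. In the same mouse the hippocampal list summed to 662 CPM, the lowest of the EtOH mice (the others 713 to 858), and the oligodendrocyte list to 5395 CPM, the highest (the others 3021 to 3766, Control mice 4501 to 5983). EtOH mouse 3 had the highest level of Homer2, Homer3, Camk2d and Cbln4 and the lowest of Cbln2. In this mouse the hippocampal list summed to 858 CPM, the highest of all mice, and its choroid plexus list summed to 1537 CPM, beside 193 to 548 CPM in the other EtOH and 237 to 290 CPM in Control mice. Over the 5 EtOH mice, Camk2d and Cbln4 had the same order as the hippocampal sums (mice 3, 4, 1, 5 and 2 from high to low). Cbln4 was nearly tied in mice 4 and 1 (26.82 and 26.77 CPM), and Cbln2 had the reverse order. The other 4 genes called (Homer2, Homer3, Lrrtm1 and Cbln1) had different orders. The oligodendrocyte sums ran nearly in reverse, with 3021, 3346, 3411, 3766 and 5395 CPM in mice 4, 3, 1, 5 and 2. The hippocampal list was thus not the only one near this order, and no order was tested. In the 7 Control mice, neither Camk2d nor Cbln4 had the full order of the hippocampal sums, and Cbln2 did not have the reverse order. This does not show unrelated levels, because some mice were nearly tied (sums of 578.8 and 579.4 CPM in Control mice 4 and 5). Camk2d was lowest in Control mouse 7 (76.6 CPM) and next lowest in Control mouse 3 (81.6 CPM). The hippocampal sums were also lowest in these mice (442 and 551 CPM). Control mouse 7, with the lowest hippocampal sum (442 CPM), had the third highest Cbln4 of its group (16.1 CPM). Control mouse 5, with the third highest sum (579 CPM), had the lowest Cbln4 (8.87 CPM) and the lowest Cbln2 (33.4 CPM). Control mouse 1, with the second highest sum (606 CPM), had the highest Cbln4 (22.04 CPM). Of the choroid plexus genes, 4 of the 7 tested were called higher and 0 lower by edgeR, both with the fold minimum and by the adjusted p alone. The part of these marker levels in the gene levels was not tested. Without EtOH mouse 2, 6 genes were called higher and 1 lower as with all mice, and without EtOH mouse 3, 4 and 1.

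Lists of related genes were set beside the 42. Of 44 other postsynaptic scaffold and signalling genes, 1 was called higher, the scaffold gene Tanc1, with 29.4 CPM in Control and 71.9 CPM in EtOH mice on average (log2 fold change 1.29, SE 0.08, adjusted p = 1.20e-08), and 0 were called lower by edgeR. These are 2.27% and 0%, beside 4.2% and 4.09% of all tested genes. By the adjusted p alone, 7 (15.9%) were higher and 10 (22.7%) lower, beside 12.1% and 11.6%. Of 52 other adhesion genes, 9 (17.3%) were called higher and 1 (1.92%) lower, and by the adjusted p alone 20 (38.5%) were higher and 4 (7.69%) lower, beside the same shares of all tested genes. The 3 with the smallest p among those higher were C1ql2, a secreted C1q-like protein of dentate granule cell synapses that is also on the hippocampal list (log2 fold change 4.29), Tenm2, a teneurin that binds latrophilins (1.47), and Clstn2, a calsyntenin (0.64). The gene called lower was the neuronal pentraxin Nptx2, which clusters AMPA receptors (-0.85, SE 0.19, adjusted p = 0.00322). The median log2 fold change was -0.006 for the scaffold and signalling list and 0.090 for the adhesion list.

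Marker lists of the remaining cell types also differed between groups in part. Of 10 interneuron genes, 1 was called higher and 3 lower, with sums of 1123 to 1447 CPM in Control and 983 to 1048 CPM in EtOH mice, and of 9 deep layer genes 2 were higher and 4 lower (418 to 516 and 462 to 526.1 CPM). Upper layer genes gave 1 higher and 2 lower of 10, and oligodendrocyte genes 0 and 2 of 10. For microglia, 0 of 10 were called higher and 1 lower (381 to 439 and 326 to 349 CPM), and for endothelial cells 0 and 1 of 8 (247 to 273 and 233 to 255 CPM). Astrocyte genes gave 1 higher and 0 lower of 10 (3727 to 4273 and 4022 to 4553 CPM), and thalamic genes 1 and 1 of the 7 tested, all 8 summing to 120.0 to 149.5 and 126 to 150.1 CPM. By the adjusted p alone, 8 oligodendrocyte, 7 microglial and 1 endothelial gene were lower and 0 higher by edgeR, and 4 astrocyte genes were higher and 1 lower. The genes with the highest and lowest means were Gad1 and Adarb2 for interneurons, Bcl11b and Nxph4 for deep layers, Rasgrf2 and Rspo1 for upper layers, Mbp and Opalin for oligodendrocytes and Csf1r and Aif1 for microglia. They were Flt1 and Tek for endothelial cells, Slc1a2 and Gjb6 for astrocytes, Rora and Gbx2 for the thalamus, Enpp2 and Kcnj13 for the choroid plexus, Ppp1r1b and Isl1 for the striatum, Wfs1 and Lefty1 for the hippocampus and Snap25 and Nefm for neurons. No gene of any list was at 0 in every mouse, and the part of these lists in the results on the 42 genes was not tested.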

How the data were processed

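RNA was extracted and sequenced by BGI from frozen cortex of 12 mice, 7 Control and 5 EtOH. The authors checked reads with FastQC 0.11.9, aligned them with STAR to GRCm39 with the Gencode Release 28 annotation and counted them with featureCounts (strand and multi-mapping settings not given in the sources used here). They deposited 1 table of estimated counts per gene symbol, not normalized, in which 61 symbols hold values that are not whole. These were rounded. All 12 columns were matched to mice by name.

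Genes were filtered with edgeR's filterByExpr, scaled by TMM and compared by edgeR's quasi-likelihood test without covariates, with the study's thresholds (R 4.3.3, edgeR 4.0.16, limma 3.58.1, DESeq2 1.42.0). P-values were adjusted over all 16059 genes. SE is the log2 fold change divided by the square root of F. At these depths 3 counts are 0.0711 to 0.0944 CPM, under the level of each of the 42 genes in every mouse. Per-length levels use the union of exons in Gencode M39, a newer annotation of the same build, in which exons of other genes overlap 30 of the 42. In a simulation of this comparison over 15909 genes, edgeR recovered 179 of the 199 tested genes that were changed (log2 size 1) and made 2 false calls. Members, lists and tests were chosen with earlier results of these data known. By rule, values of every mouse were due for members called, means for members passing the adjusted p alone and the range of fold changes for the others. The text goes beyond it, with single fold changes or levels for many members that did not pass (means for Camk2a, Iqsec2 and Nlgn2). These, the per-mouse values of Shank2, Dlgap1, Dlgap3, Nrgn, Lrrtm3 and Slitrk3, and the genes whose upstream sequence is shown, were chosen after values were seen. For both lists of related synaptic genes, up to 3 called genes of smallest p in each direction are named, and for marker lists the genes of highest and lowest mean. The labels number the mice as separate samples, and the p-values set the difference between groups against the spread between these samples.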

Additional observations from a re-analysis of the deposited data

Results flagged for a closer look

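Of 110 sets of values (a gene, a marker sum or a library total within 1 group), 9 held a mouse well apart from the others by Dixon's test, and about 5.5 would be so by chance. The library of Control mouse 5 held 40690223 counts (next 32356913) and EtOH mouse 1 had 42183029 (next 33313165), so each group holds 1 deeper library. Control mouse 5 also had the lowest Control level of Dlg4 (728 CPM, next 817 CPM) and of Nlgn3 (27.8 CPM, next 35.2 CPM). The other values among the 42 genes were Dlgap1 in EtOH mouse 2 (694 CPM, the highest, next 660 CPM), Lrrtm1 in Control mouse 3 (49.5 CPM, the lowest, next 57.9 CPM) and Cbln4 in EtOH mouse 2 (15.8 CPM, the lowest, next 24.6 CPM). Among marker sums, EtOH mouse 4 had the lowest thalamus sum of the EtOH mice (126 CPM, next 145 CPM), and EtOH mouse 3 the highest choroid plexus sum (1537 CPM, next 548 CPM). No explanation was tested for these values.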

How the results depend on the processing

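With DESeq2, limma voom, RLE or upper quartile factors, other filters on low counts, or without the deepest library of each group, 6 of the 42 genes were called higher and 1 lower, as in the report. Leaving out 1 mouse gave 4 to 6 higher and 1 lower (576 to 783 and 586 to 727 of all genes). Without a fold change minimum, 12 and 6 of the 42 passed and 1947 and 1863 of all genes. With a minimum of 1, 2 and 1 of the 42 and 242 and 282 of all genes passed, by construction fewer. Of the 7 called genes, 5 kept the call in every setting other than the higher fold minimum, while Homer2 and Camk2d lost it in 4 and 1 of the 12 fits without 1 mouse. None of the 18 of the 42 genes with an adjusted p under 0.05 changed sign in any of these settings. Signs of 7 genes near 0 turned, mostly without 1 mouse, where Shank3 lay between -0.041 and 0.030, Iqsec2 between -0.023 and 0.038, Nlgn3 between -0.000999 and 0.113, Lrrtm2 between -0.022 and 0.055, Slitrk2 between -0.026 and 0.059, Slitrk4 between -0.043 and 0.024 and Lrfn2 between -0.011 and 0.082. Slitrk4 also turned without the deepest libraries (0.018). The cause was not tested. With the replicate number as a block (replicate block), 7 were called higher and 1 lower, Shank2 being added at a log2 fold change of 0.51, and 10 and 5 passed the adjusted p alone. Dlg4 (0.114), Kalrn (0.0607), Nlgn1 (0.0570) and Lrrtm4 (0.0531) then missed that threshold, and Camk2a (0.0350) then passed it. Deviations of same-numbered mice correlated between -0.108 and 0.0182, and 0 of 5 EtOH mice correlated best with the Control mouse of their own number. The labels do not say whether the numbers stand for a pairing or batch, and this check cannot exclude one. The lowest value of the 42 genes in any mouse was 3.14 CPM (Homer3), above the 0.0944 CPM or less that 3 counts give.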
